A study of Mus musculus with 4 samples.

Results

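Small leucine-rich proteoglycans and the large proteoglycans versican and perlecan were described in mouse embryonic fibroblasts (MEFs) with and without Dnmt3l. The 9 genes were taken by symbol (Dcn, Bgn, Aspn, Lum, Fmod, Prelp, Ogn, Vcan and Hspg2), out of 36846 gene symbols in the deposited table, and all 9 had counts in every library. RNA was sequenced from fibroblast lines of Dnmt3l-KO (2 libraries) and wild-type embryos (WT, 2 libraries), all C57BL/6 and at passage 4. Per the labels, the lines of both genotypes came from embryonic days 13.5 to 14.5 of crosses between Dnmt3l+/- parents, the cells were grown in DMEM with serum, and the RNA was freed of ribosomal RNA and copied with random primers. How the allele was made is not described in the labels, nor whether replicates are separate embryos or cultures. The p-values below therefore measure only the spread between these libraries, which may be technical. The comparison was made in the study to find genes behind a difference between donor fibroblasts in nuclear transfer.

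Matrix proteoglycans are secreted core proteins, most of which carry sulfated sugar chains called glycosaminoglycans. The small leucine-rich members share a core of leucine-rich repeats, bind collagen fibrils and set how the fibrils assemble; several also bind growth factors. Versican is a large chondroitin sulfate proteoglycan that binds hyaluronan in loose matrix, and perlecan, the product of Hspg2, is a heparan sulfate proteoglycan of basement membranes. Fibroblasts are a main source of these proteins in connective tissue.

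Total estimated counts ranged from 40681328 to 51465395 per library, of which the 9 genes took 0.333% and 0.405% in Dnmt3l-KO and 0.317% and 0.310% in WT. Dnmt3l itself had 0 counts in both Dnmt3l-KO libraries and 6 and 1 counts in WT, so it was near the floor of 3 counts in either genotype and does not check the labels. Of the fibroblast markers all 12 passed the expression filter, among them Vim, an intermediate filament gene, at 4667 and 4356 CPM in Dnmt3l-KO and 4045 and 4326 CPM in WT. CPM is the count scaled to a common library total after TMM normalization, and FPKM, the authors' deposited unit, is also divided by transcript length.

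Of the 9 genes, biglycan and perlecan had the highest levels per transcript length. Biglycan (Bgn) had between 566 and 719 FPKM over the 4 libraries, perlecan (Hspg2) 66.0 to 90.4 FPKM and versican (Vcan) 28.5 to 45.9 FPKM. Osteoglycin (Ogn) at 15 to 49.0 FPKM, asporin (Aspn) at 6.92 to 26.6 FPKM and fibromodulin (Fmod) at 7.37 to 15.4 FPKM followed. Decorin (Dcn), the prototype of the family and a binder of collagen and TGF-beta, had only 1.73 to 4.50 FPKM, in a range with lumican (Lum, 0.188 to 4.27 FPKM) and Prelp (0.632 to 2.02 FPKM). In this order 3 boundaries were free of overlap over the 4 libraries: Bgn above Hspg2, Hspg2 above Vcan, and Fmod above Dcn. All other neighbours in the order overlapped. By mean FPKM, Bgn ranked 115 and Dcn ranked 9287 among the 36846 symbols, and Bgn alone made up 77.9% of the summed FPKM of the 9 genes in Dnmt3l-KO and 78.7% in WT (means of 2 libraries).

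**Figure D1:**
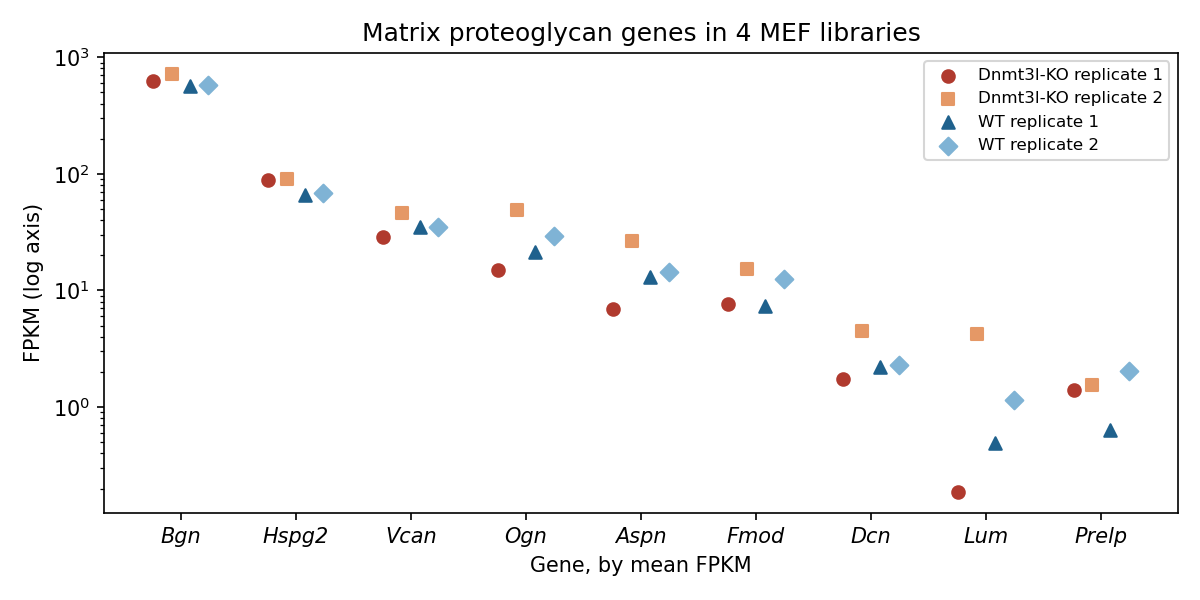
FPKM of the 9 proteoglycan genes (log axis) in each library, ordered by mean FPKM; each point is 1 library. Bgn lies between 566 and 719 FPKM in every library, while Lum spans 0.188 to 4.27 FPKM and both ends of that span are Dnmt3l-KO libraries.

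None of the 9 genes passed the genotype test. In CPM their values split into a pair that differed little between libraries of a genotype, a set of 6 in which 1 Dnmt3l-KO library was below and the other above WT, and Prelp. In edgeR's quasi-likelihood test with Benjamini-Hochberg adjustment over all 14760 genes tested, 0 of 9 were called, against 0.0203% of all genes. DESeq2 also called 0 of 9, against 0.166% of the genes it tested. At an unadjusted p under 0.05 there was 1 of 9, Hspg2, against 4.15% of all genes. All 9 fitted log2 fold changes were above 0 (51.3% of all genes were), with a median of 0.22, against 0.01 over all genes; in limma-voom 8 of 9 were, with a median of 0.12. That median moved with single libraries: it was 0.56 without Dnmt3l-KO replicate 1, when all 9 stayed above 0, and -0.38 without Dnmt3l-KO replicate 2, when 6 of 9 were below 0. In bulk RNA, fewer cells expressing a gene and less RNA per cell cannot be told apart.

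Hspg2 (chromosome 4, 137468751 to 137570630, GRCm38), the basement membrane proteoglycan, had 1376 and 1359 CPM in Dnmt3l-KO, against 1091 and 1028 CPM in WT. Both Dnmt3l-KO libraries lay above both WT libraries, and the libraries within each genotype were close together. The Dnmt3l-KO mean was 1.29 times the WT mean, and edgeR's log2 fold change was 0.37 ± 0.11 (SE; unadjusted p = 0.0189, adjusted p = 0.999 over all genes). Leaving out any 1 library gave log2 fold changes of 0.33 to 0.41. Bgn (chromosome X, 73483601 to 73495936), which binds collagen and signals through Toll-like receptors when released, had 1640 and 1819 CPM in Dnmt3l-KO and 1575 and 1476 CPM in WT. Its groups did not overlap either, but the lowest Dnmt3l-KO library and the highest WT library were close, and the log2 fold change was 0.18 ± 0.12 (SE; edgeR, adjusted p = 0.999). These 2 of 9 were the only members whose groups did not overlap. The same held for 32.8% of all genes tested, 16.2% with both Dnmt3l-KO libraries higher, so the share among the members is near the background.

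**Figure D2:**
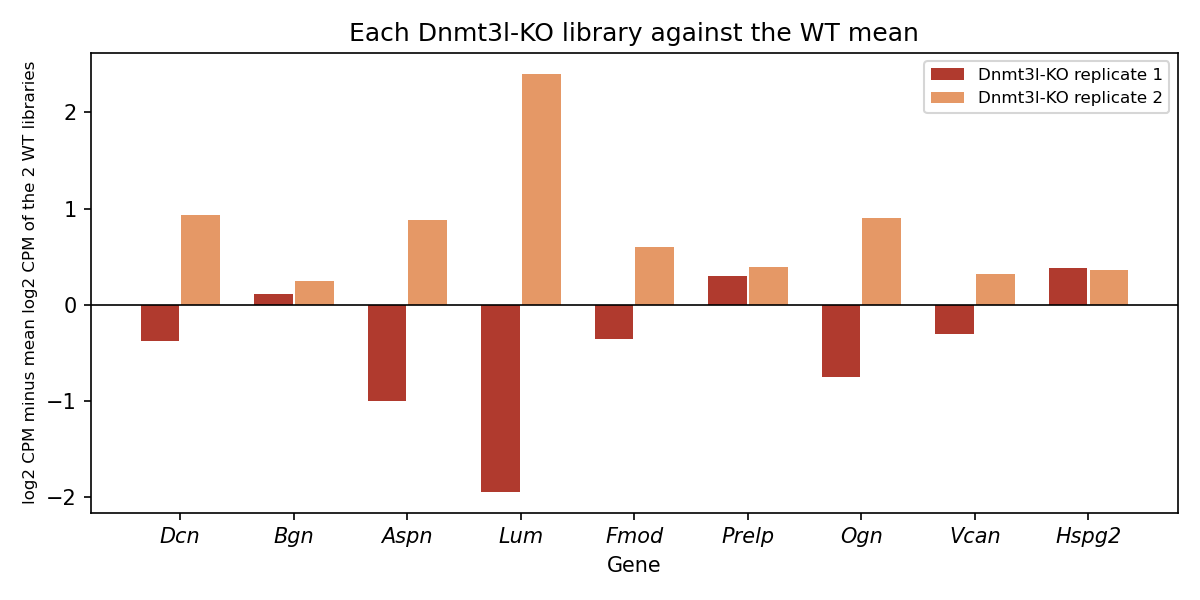
Each Dnmt3l-KO library's log2 CPM minus the mean log2 CPM of the 2 WT libraries (log2 units; CPM with a prior count of 2), 1 pair of bars per gene. Bars of Hspg2, Bgn and Prelp point the same way in both Dnmt3l-KO libraries, while those of the other 6 genes point in opposite directions, widest for Lum at -1.94 and 2.40.

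For Dcn, Aspn, Lum, Fmod, Ogn and Vcan, Dnmt3l-KO replicate 1 was below both WT libraries and Dnmt3l-KO replicate 2 above both. In CPM this arrangement was found in 6 of 9 members and in 14.0% of all genes tested. In FPKM it did not hold for Fmod, with 7.61 FPKM in Dnmt3l-KO replicate 1 and 7.37 FPKM in WT replicate 1. Because the 9 genes had been proposed with results of these data known, these counts are a description. The values below are CPM, and fold changes between genotypes for these genes average the Dnmt3l-KO libraries over that gap.

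Lum (chromosome 10, 97565501 to 97572703), a keratan sulfate proteoglycan that spaces collagen fibrils in the cornea and skin, had 0.421 and 9.38 CPM in Dnmt3l-KO, against 1.19 and 2.54 CPM in WT. These rest on 21 and 392 counts in Dnmt3l-KO and 56 and 106 counts in WT. The Dnmt3l-KO libraries enclosed the WT libraries, 22.3 times apart from each other, while the WT libraries were 2.14 times apart. The log2 fold change between genotypes was 1.39 ± 1.30 (SE; edgeR, adjusted p = 0.999), and it was 2.34 without Dnmt3l-KO replicate 1 and -2.14 without Dnmt3l-KO replicate 2. Other models gave Lum smaller values, 0.09 in limma-voom and 0.47 with the replicate number as a block. Dcn, which lies 47.3 kb from Lum (chromosome 10, 97479500 to 97518163), had 3.61 and 8.97 CPM in Dnmt3l-KO and 4.80 and 4.55 CPM in WT. The WT libraries were nearly equal and sat between the Dnmt3l-KO libraries, which were 2.49 times apart. Its log2 fold change was 0.42 ± 0.45 (SE; edgeR, adjusted p = 0.999). Both genes lie on the chromosome of Dnmt3l, with Dcn 19.4 Mb from it.

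Aspn (chromosome 13, 49544443 to 49567565), a collagen-binding member with an aspartate-rich stretch that restrains TGF-beta, had 18.0 and 66.4 CPM in Dnmt3l-KO, against 36.1 CPM in each WT library. Ogn (chromosome 13, 49608015 to 49624501), also called mimecan, had 41.9 and 132 CPM in Dnmt3l-KO, against 62.8 and 79.0 CPM in WT. For both genes the WT libraries lay inside the Dnmt3l-KO range, and the Dnmt3l-KO libraries were 3.68 times apart for Aspn and 3.14 times for Ogn. The log2 fold changes were 0.22 ± 0.59 for Aspn and 0.29 ± 0.53 for Ogn (SE; edgeR, adjusted p = 0.999 for both). The Aspn value has no stable sign, at -0.08 in limma-voom and -0.05 with the replicate number as a block, and Ogn was at 0.08 in both. Fmod, which guides collagen cross-linking and fibril growth, had 24.0 and 46.5 CPM in Dnmt3l-KO and 24.5 and 38.4 CPM in WT (chromosome 1, 134037254 to 134048280). Here the WT libraries were themselves 1.56 times apart, and Dnmt3l-KO replicate 1 was within a small margin of WT replicate 1. Its log2 fold change was 0.16 ± 0.38 (SE; edgeR, adjusted p = 0.999).

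Vcan (chromosome 13, 89655309 to 89743027) had 320 and 492 CPM in Dnmt3l-KO, against 413 and 376 CPM in WT. The Dnmt3l-KO libraries were 1.54 times apart and enclosed WT, and the genotype means were almost equal (edgeR log2 fold change 0.04 ± 0.22, SE, adjusted p = 0.999). Prelp (chromosome 1, 133910304 to 133930102), a leucine-rich protein with a basic end that binds heparin, showed another pattern. It had 5.57 and 5.96 CPM in Dnmt3l-KO, against 2.63 and 7.76 CPM in WT. The Dnmt3l-KO libraries were close together and lay between the WT libraries, which were 2.95 times apart, and the log2 fold change was 0.15 ± 0.51 (SE; edgeR, adjusted p = 0.999). It was 1.13 without WT replicate 2, -0.43 without WT replicate 1 and 0.38 in limma-voom.

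**Figure D3:**
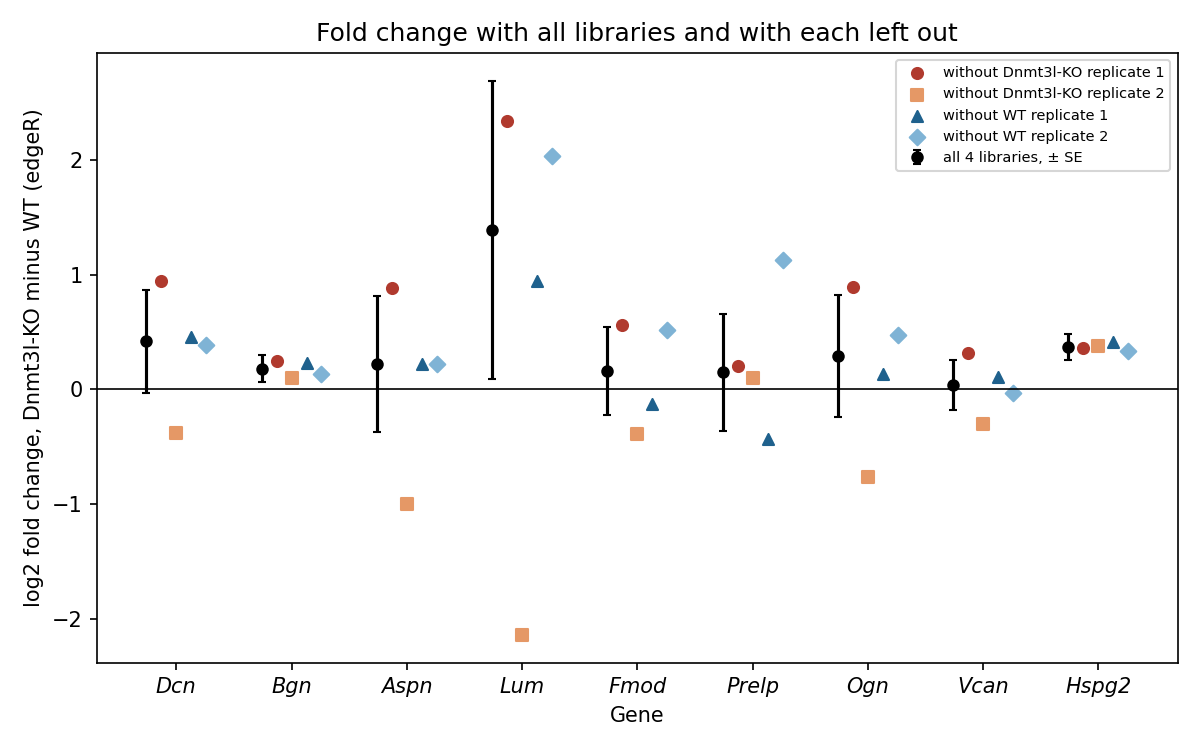
Log2 fold change between Dnmt3l-KO and WT (edgeR) for each gene with all 4 libraries (black, bars are ± SE) and with each library left out (coloured points). Hspg2 stays between 0.33 and 0.41, while Lum, Aspn, Ogn, Dcn, Fmod and Vcan fall below 0 without Dnmt3l-KO replicate 2.

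Between the Dnmt3l-KO libraries, 6 of the 9 genes (Dcn, Aspn, Lum, Fmod, Ogn and Vcan) differed by more than the median absolute log2 difference over all genes, 0.22, and Hspg2, Prelp and Bgn by less. Between the WT libraries, 5 of 9 differed by more than the median over all genes, 0.13. Taking log2 CPM of replicate 2 minus that of replicate 1, the median in Dnmt3l-KO was 0.95 over the 9 members and 0.00 over all 14760 genes. In WT the median over the members was 0.00, as it was over all genes. In all, 4 members (Dcn, Aspn, Lum and Ogn) were over 2-fold higher in Dnmt3l-KO replicate 2 than in replicate 1, against 4.77% of all genes, and 0 were over 2-fold lower, against 3.36%. Over 2-fold higher in replicate 2 were also 3 of 7 other leucine-rich genes tested, 4 of 12 other matrix proteoglycans, 3 of 6 chondrocyte markers and 3 of 12 fibroblast markers, with 0 over 2-fold lower in each of these lists. Other lists differed. Hyaluronan partners and proteases each had 2 higher and 1 lower. Endothelial (2 of 3), osteoblast (1 of 2), leukocyte (1 of 7) and smooth muscle (1 of 5) markers had only lower ones. Chondroitin, keratan sulfate and tendon lists had 1 higher each, and the remaining lists had neither. In WT, Lum and Prelp were over 2-fold higher in replicate 2, against 1.78% of all genes, and 0 members were over 2-fold lower, against 1.72%. These are differences between single libraries and carry no test. The Dnmt3l-KO libraries also differed more from each other in general, with an SD of the log2 difference over all genes of 0.62, against 0.44 in WT.

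**Figure D4:**
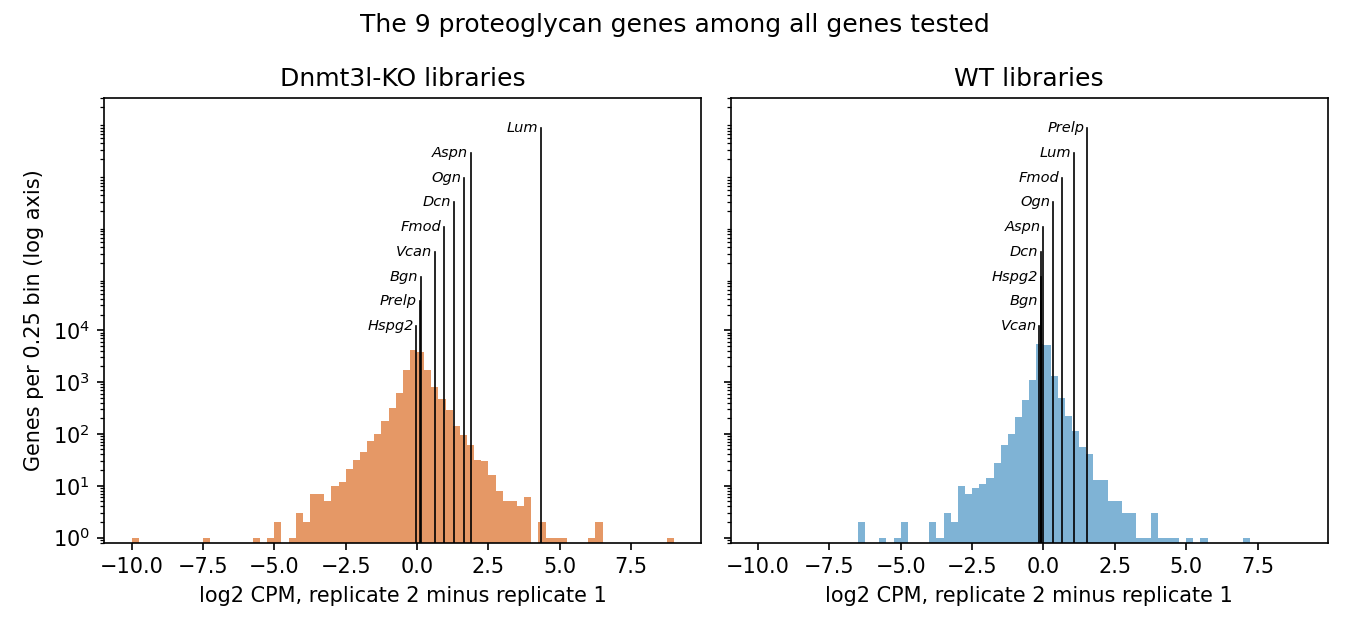
Histograms of the log2 CPM difference, replicate 2 minus replicate 1, over 14760 genes in Dnmt3l-KO (left) and WT (right); bin width 0.25, vertical axis logarithmic, lines at the values of the 9 members (line height has no meaning). In Dnmt3l-KO, 8 of 9 members lie above 0, up to Lum at 4.34, and in WT the highest is Prelp at 1.54.

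Summed over the 9 genes, the level was 771 and 956 FPKM in Dnmt3l-KO, against 711 and 745 FPKM in WT, a ratio of means of 1.19. On the CPM scale the sums were 3430 and 3939 in Dnmt3l-KO and 3211 and 3048 in WT, a ratio of 1.18. Both Dnmt3l-KO sums were above both WT sums; the exact two-sided permutation test gave p = 0.333, the smallest p that 2 against 2 libraries allow. Bgn and Hspg2 carried this, with 3016 and 3178 CPM together in Dnmt3l-KO and 2666 and 2504 CPM in WT. The other 7 genes summed to 413 and 761 CPM in Dnmt3l-KO and 546 and 544 CPM in WT, so there the Dnmt3l-KO libraries lay on either side of WT.

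Several cell type marker lists also differed between the Dnmt3l-KO libraries, and their part in the result was not tested. Of 12 fibroblast markers, 10 were higher in Dnmt3l-KO replicate 2 than in replicate 1, with a median log2 difference of 0.71. The list summed to 23398 and 29666 CPM in Dnmt3l-KO and 25174 and 21756 CPM in WT. The 2 with the highest FPKM, S100a4 and Vim, were lower in Dnmt3l-KO replicate 2. S100a4 had 1212 and 914 CPM in Dnmt3l-KO, both below WT at 1267 and 1488 CPM. Of 5 smooth muscle and pericyte markers, 0 were higher in Dnmt3l-KO replicate 2 (median -0.64), and their sums were 7826 and 5017 CPM in Dnmt3l-KO and 7104 and 5663 CPM in WT, most of it from the actin gene Acta2. Chondrocyte markers summed to 251 and 333 CPM in Dnmt3l-KO and 239 and 284 CPM in WT, with 5 of 6 tested higher in Dnmt3l-KO replicate 2 and Lect1 at 0 in every library. Tendon markers, with 3 of 3 tested higher in replicate 2 and Kera at 0 throughout, summed to 30.4 and 48.5 CPM in Dnmt3l-KO and 37.7 and 43.5 CPM in WT. Endothelial markers summed to 20.2 and 6.53 CPM in Dnmt3l-KO and 8.60 and 10.1 CPM in WT, with 1 of 3 tested higher in Dnmt3l-KO replicate 2 and none of the list at 0 in all libraries. Leukocyte markers stayed between 9.59 and 12.9 CPM in sum over all libraries, and epithelial markers between 3.97 and 7.62 CPM, with the keratins Krt5 and Krt14 at 0. Skeletal muscle markers summed to 28.1 and 16.7 CPM in Dnmt3l-KO and 17.6 and 17.3 CPM in WT, osteoblast markers to 45.1 and 54.0 CPM in Dnmt3l-KO and 43.8 and 46.8 CPM in WT, and neural markers to 57.6 and 79.0 CPM in Dnmt3l-KO and 62.8 and 60.2 CPM in WT. In edgeR and DESeq2, 0 of the 46 cell type markers tested were called between genotypes, with 0 at an unadjusted p under 0.05 in edgeR.

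The genes whose pattern over the 4 libraries was nearest to that of Lum, the member with the widest range, were Fbn2, Lrrc17 and Wisp2. Among 5116 genes with a mean log2 CPM of at least 5, Fbn2, a fibrillin of microfibrils, was nearest, at a Euclidean distance of 1.08 in centred log2 CPM. It had 30.8 and 232 CPM in Dnmt3l-KO and 53.2 and 79.5 CPM in WT. Lrrc17, a secreted leucine-rich repeat protein, followed at a distance of 1.73, and Wisp2, a matricellular protein of the CCN family, at 1.77. Wisp2 had 51.6 and 211 CPM in Dnmt3l-KO and 110 and 148 CPM in WT, with the Dnmt3l-KO libraries enclosing WT. These genes were picked for their likeness to Lum in the same 4 libraries, so that shared arrangement follows from the choice.

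The RefSeq promoters of Hspg2, Bgn, Aspn and Ogn are shown (GRCm38.p6, 300 bases, from 250 before to 50 after the start). They were picked after their values were seen, Hspg2 and Bgn as steadier genes, Aspn and Ogn as genes that parted between the Dnmt3l-KO libraries. CG dinucleotides are marked because Dnmt3l acts with enzymes that methylate cytosine in them. All 4 are on the plus strand: Hspg2 at chr4:137468553-137468852, Bgn at chrX:73483351-73483650, Aspn at chr13:49544193-49544492 and Ogn at chr13:49607765-49608064. Capitals mark each CG.
Hspg2: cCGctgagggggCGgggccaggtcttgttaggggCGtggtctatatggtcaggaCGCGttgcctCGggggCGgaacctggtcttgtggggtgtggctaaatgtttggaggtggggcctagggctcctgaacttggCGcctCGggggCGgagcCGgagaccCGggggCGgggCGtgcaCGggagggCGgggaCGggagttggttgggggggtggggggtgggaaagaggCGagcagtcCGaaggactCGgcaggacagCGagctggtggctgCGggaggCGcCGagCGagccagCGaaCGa
Bgn: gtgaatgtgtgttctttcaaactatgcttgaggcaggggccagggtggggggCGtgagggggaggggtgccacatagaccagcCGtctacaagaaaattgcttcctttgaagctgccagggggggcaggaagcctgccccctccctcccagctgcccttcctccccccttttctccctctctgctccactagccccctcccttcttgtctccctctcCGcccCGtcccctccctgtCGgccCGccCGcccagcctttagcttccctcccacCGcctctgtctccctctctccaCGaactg
Aspn: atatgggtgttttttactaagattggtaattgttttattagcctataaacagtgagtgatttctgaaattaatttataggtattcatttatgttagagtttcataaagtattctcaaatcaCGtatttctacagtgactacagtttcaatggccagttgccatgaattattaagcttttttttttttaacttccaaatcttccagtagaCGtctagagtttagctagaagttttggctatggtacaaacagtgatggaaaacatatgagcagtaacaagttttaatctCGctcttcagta
Ogn: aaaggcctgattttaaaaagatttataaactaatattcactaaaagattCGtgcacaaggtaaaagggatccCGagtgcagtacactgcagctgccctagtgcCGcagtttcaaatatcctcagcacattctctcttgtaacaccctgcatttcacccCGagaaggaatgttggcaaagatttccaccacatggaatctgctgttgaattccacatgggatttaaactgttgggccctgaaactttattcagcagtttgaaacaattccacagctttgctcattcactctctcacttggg
Hspg2 held 27 CG in this window, a number reached by 15.5% of the 32851 promoters in the table. Bgn held 9 (reached by 45.8%), Ogn 4 (68.6%) and Aspn 3 (76.7%), and Fmod, Prelp and Vcan, not printed, held 3, 7 and 12. Vcan, which also parted between the Dnmt3l-KO libraries, thus held more CG than Bgn. The median over all promoters was 7. Of the 9 genes, 7 were matched in the promoter table, all but Dcn and Lum. These counts describe sequence only, and methylation was not measured here. A link between CG count and the spread between libraries was not tested.

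The transcripts of Hspg2 and Vcan were compared next, since the deposited counts are per RefSeq transcript. Of 28 transcripts of the 9 genes, 22 passed the filter on low counts and 0 were called in edgeR, against 0.00252% of all transcripts, with 4 at an unadjusted p under 0.05, against 4.12% of all transcripts. In the authors' deposited table, 1 of the 22 member transcripts with an adjusted p was called, against 0.441% of all transcripts. It was the predicted variant X4 of Hspg2, with 61 and 37 counts in Dnmt3l-KO, against 218 and 226 counts in WT. Both Dnmt3l-KO libraries were far below WT, opposite to the gene as a whole. The authors' deposited table gives it a log2 fold change of -1.43 with a standard error of 0.34 and an adjusted p of 0.0117; edgeR gave -2.25 ± 0.44 (SE, adjusted p = 1.0 over all transcripts). X4 held 0.0888% and 0.0651% of the Hspg2 counts in Dnmt3l-KO and 0.424% and 0.527% in WT, while the curated Hspg2 mRNA held 69.3% and 73.3% in Dnmt3l-KO and 67.0% and 66.5% in WT. Each share depends on how reads shared by transcripts were divided, a step not described in the labels or headers.

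Vcan is spliced into forms that differ in 2 long exons, which encode the regions that carry chondroitin sulfate chains. By the GENCODE M21 transcripts paired with the RefSeq entries, variant 1 holds exons of 5217 and 2880 bases, variant 2 holds the 5217-base exon, variant 3 the 2880-base exon and variant 4 neither. Variant 2 held 44.7% and 45.7% of the Vcan counts in Dnmt3l-KO and 47.7% and 43.3% in WT. Variant 1 held 35.4% and 35.0% in Dnmt3l-KO and 34.7% and 27.4% in WT. The WT libraries enclosed the Dnmt3l-KO libraries in the share of variant 2, while for variant 1 both Dnmt3l-KO shares lay above both WT shares, by a small margin over WT replicate 1. In WT replicate 2, where variant 1 was lowest, the predicted variant X1 held 14.7%. It held 6.41% in WT replicate 1 and 7.04% and 6.69% in Dnmt3l-KO. Variant 4 held 0.656% to 1.24% in any library and variant 3 at most 8 counts. The predicted variant X3 had 667 and 419 counts in Dnmt3l-KO, against 264 and 242 counts in WT, with the Dnmt3l-KO libraries above WT, and the edgeR log2 fold change was 1.04 ± 0.27 (SE, unadjusted p = 0.0137, adjusted p = 1.0 over all transcripts). Of the small proteoglycans, Lum, Fmod and Ogn have 1 transcript each in the table, and 1 transcript held at least 93.8% of Aspn, 96.5% of Bgn and 95.6% of Dcn counts in each library. The curated Prelp transcript held 97.8% and 73.9% of the Prelp counts in Dnmt3l-KO and 100% and 99.1% in WT, with predicted variants X2 and X3 at 12.0% and 11.6% in Dnmt3l-KO replicate 2. Alone it had 5.45 and 4.41 CPM in Dnmt3l-KO and 2.65 and 7.66 CPM in WT. Its edgeR log2 fold change was -0.06 ± 0.59 (SE), against 0.15 for the gene. For Prelp the sign and the order of the Dnmt3l-KO libraries thus turn with the predicted variants.

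**Figure D5:**
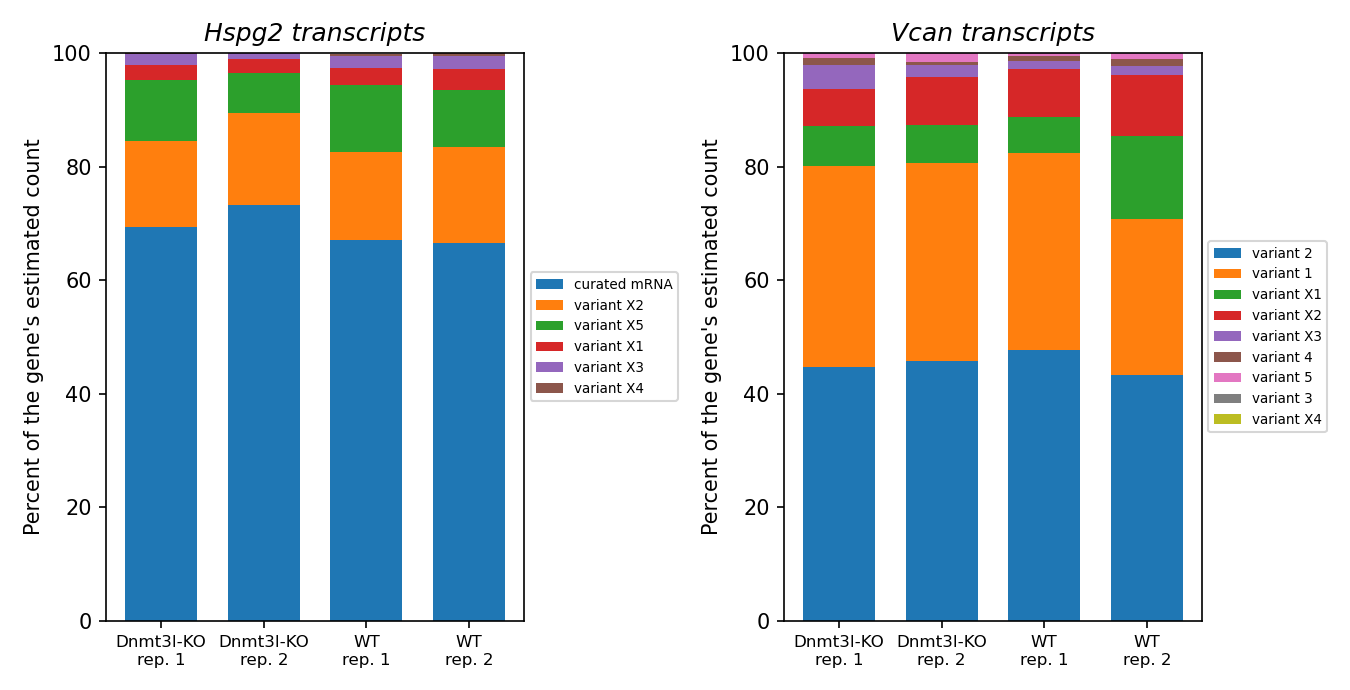
Percent of the estimated counts of Hspg2 (left) and Vcan (right) held by each RefSeq transcript in each library, stacked to 100. The curated Hspg2 mRNA holds 66.5% to 73.3% and Vcan variants 1 and 2 hold the bulk of the Vcan counts in all 4 libraries.

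The genes that build, sulfate, cleave and bind proteoglycans were taken as 10 lists of 129 genes, of which 116 were tested. EdgeR called 0 of them and DESeq2 called 0. At an unadjusted p under 0.05 there were 7 (6.03%, against 4.15% of all genes), each with a log2 fold change above 0, and 78 of 116 fold changes were above 0 (67.2%, against 51.3% of all genes). Both Dnmt3l-KO libraries lay above both WT libraries for 27 of the 116 genes and below both for 7, against 16.2% and 16.5% of all genes. The counts are descriptions, and the lists were chosen with earlier results of these data known. Most genes named below are among the 2 of their list with the smallest p in this same fit. Where their groups lie apart, that follows from this choice. Of others picked this way, Chst11, Extl3, Hapln3, Hyal1 and Adamts1 had both Dnmt3l-KO libraries above WT. Bcan, Impad1, Chst5 and Smoc1 had both below, Smoc1 at 19.3 and 18.4 CPM in Dnmt3l-KO and 23.9 and 20.5 CPM in WT. Bcan rests on few counts, 4 and 7 in Dnmt3l-KO and 14 and 11 in WT. So does Chst5, with 5 and 17 counts in Dnmt3l-KO and 20 and 18 counts in WT.

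Among the enzymes, Xylt2, a xylosyltransferase that begins the chains, had 20.1 and 19.3 CPM in Dnmt3l-KO and 14.9 and 16.3 CPM in WT. Chpf, which with its partners extends chondroitin chains, had 105 and 112 CPM in Dnmt3l-KO, against 80.9 and 88.2 CPM in WT. For both, the Dnmt3l-KO libraries lay above WT by more than the gap within a genotype, with log2 fold changes of 0.33 ± 0.11 and 0.35 ± 0.10 (SE; edgeR, adjusted p = 0.999 for both). Of 9 linker genes, 7 had fold changes above 0, and of 15 chondroitin and dermatan sulfate genes tested, 11 did. Sulf2, an extracellular enzyme that trims sulfate from heparan sulfate, had 154 and 177 CPM in Dnmt3l-KO and 124 and 137 CPM in WT (13 of 18 heparan sulfate genes tested were above 0). Keratan sulfate genes were above 0 in 2 of 6 tested, with a median of -0.06, and sulfate donor genes in 4 of 6, with a median of 0.01.

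Adamts5, a protease that cleaves versican and aggrecan, had 143 and 138 CPM in Dnmt3l-KO, against 106 and 117 CPM in WT. Its log2 fold change was 0.34 ± 0.10 (SE; edgeR, unadjusted p = 0.0191, adjusted p = 0.999), and proteases as a list were split, 7 of 13 above 0. Of 18 receptors and bound growth factors, 13 were above 0. Tgfb1, a growth factor that decorin, biglycan and fibromodulin bind, had 41.9 and 38.4 CPM in Dnmt3l-KO and 28.9 and 26.3 CPM in WT, with groups apart (edgeR log2 fold change 0.54 ± 0.11, SE, unadjusted p = 0.00417, adjusted p = 0.999). Lrp1, an endocytic receptor that takes up decorin, had 1619 and 1686 CPM in Dnmt3l-KO and 1317 and 1233 CPM in WT. Cd44, the hyaluronan receptor, had 893 and 974 CPM in Dnmt3l-KO, against 1036 and 881 CPM in WT, so its groups overlapped. Of 12 hyaluronan partners tested, 8 were above 0.

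Among other leucine-rich family members, Tsku, a secreted regulator of growth factor signalling, had 62.7 and 60.4 CPM in Dnmt3l-KO and 47.6 and 53.7 CPM in WT (log2 fold change 0.28 ± 0.10, SE; edgeR, unadjusted p = 0.0426, adjusted p = 0.999). Podn, or podocan, had 1.68 and 5.50 CPM in Dnmt3l-KO and 1.91 and 1.99 CPM in WT, with only Dnmt3l-KO replicate 2 standing apart. Of the 7 other leucine-rich genes tested, 4 were higher in Dnmt3l-KO replicate 2 than in replicate 1, with a median log2 difference of 0.09. Of the 12 other matrix proteoglycans tested, 10 were, with a median of 0.59, while the medians of the 5 synthesis and sulfation lists lay between -0.06 and 0.07.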

How the data were processed

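The authors' deposited table lists 116415 RefSeq transcripts and, per the file headers, gives for each library their estimated count and FPKM, with the authors' comparison of the genotypes (mean signal, log2 fold change and its error, test score, p-value and adjusted p-value). The submitters' processing notes name eXpress 1.4.1, TopHat2 2.0.12, DESeq2 1.8.0 and Cufflinks 2.2.1 and build mm10, without their roles. Estimated counts were deposited as whole numbers and were summed per symbol, the last bracketed word before a comma in the description.

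The quasi-likelihood test of edgeR 4.0.16 (R 4.3.3; robust, TMM, expression filter) compared Dnmt3l-KO minus WT over 14760 genes at a threshold of 0.05. It was also run on simulated counts whose spread followed the trend over all genes in both genotypes. That run does not cover members as uneven between replicates as Lum. SEs were derived from the F statistic. The floor of 3 counts covers counting error only. The replicates of a genotype differed by more than sampling noise (chi-square per degree of freedom 84.8 in Dnmt3l-KO and 28.9 in WT). DESeq2 1.42.0, limma 3.58.1 (voom, and log2 FPKM with a pseudocount of 1 or 0.1) and other scalings and filters were alternatives. Members and lists were chosen with earlier results of these data known. Named genes were the members, Dnmt3l, of each pathway list the 2 smallest p and the highest FPKM, of each cell type list the 2 highest FPKM, the 3 nearest patterns and the chromosomal neighbours; not each is printed. Positions and promoters are RefSeq, GRCm38.p6, the build of mm10.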

Additional observations from a re-analysis of the deposited data

How the results depend on the processing

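None of the 9 genes was called under any of the 13 alternatives. Hspg2 and Bgn kept fold changes above 0 in all of them. The sign of Aspn turned in limma-voom (-0.08), limma on log2(FPKM + 0.1) (-0.02) and with the replicate block (-0.05). In limma-voom the folds of Lum (0.09), Ogn (0.08), Dcn (0.23), Prelp (0.38) and Vcan (0.01) also moved by over 1.5 times; on the FPKM scale Lum was 0.48 with a pseudocount of 1 and 0.38 with 0.1. Over fits leaving out 1 library, where a genotype with 1 library is assumed to vary like the other, log2 fold changes ranged from -0.38 to 0.94 for Dcn, 0.10 to 0.25 for Bgn, -1.0 to 0.88 for Aspn, -2.14 to 2.34 for Lum, -0.39 to 0.56 for Fmod, -0.43 to 1.13 for Prelp, -0.76 to 0.89 for Ogn, -0.30 to 0.32 for Vcan and 0.33 to 0.41 for Hspg2. The members whose groups did not overlap then numbered 3 to 8, the genes called 2 to 6, and the transcripts called 0 each time, all with fewer samples. With 1 library in a genotype, groups lie apart more easily than with all libraries. The matching share of all genes was not taken for these fits, so the counts of 3 to 8 say nothing particular to the members. Against 3 genes called, there were 8 with no filter on low counts, 31 in DESeq2 and 6 in limma on log2(FPKM + 1) or log2(FPKM + 0.1). Against 1 transcript called, there were 6 with no filter and 0 with the replicate block. The cause was not tested. Same-numbered libraries share only a number, and their deviations correlated at 0.10 over genes; the block called 4 genes and 0 members. At Lum's 21 counts in Dnmt3l-KO replicate 1, depth limits the precision of its fold.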

Other observations

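Of the members, 6 sit in clusters with related genes, and neighbours on the chromosome were read in the same libraries. On chromosome 13, Omd, which encodes osteomodulin, lies between Aspn and Ogn, 14.9 kb and 15.4 kb away. Omd had 2.62 and 7.68 CPM in Dnmt3l-KO and 3.02 and 5.08 CPM in WT, so Dnmt3l-KO replicate 1 was lowest and replicate 2 highest, as for Aspn and Ogn. Ecm2, 11.7 kb from Aspn on its other side, had 0.160 and 0.454 CPM in Dnmt3l-KO and 0.340 and 0.455 CPM in WT. These rest on only 8 and 19 counts in Dnmt3l-KO and 16 and 19 counts in WT. There Dnmt3l-KO replicate 1 was also lowest, and Dnmt3l-KO replicate 2 was level with WT replicate 2. Nol8, a nucleolar protein gene 28.6 kb on the other side of Ogn, had 19.2 and 21.2 CPM in Dnmt3l-KO and 22.4 and 20.3 CPM in WT. Hapln1, which encodes a link protein that fastens versican to hyaluronan and lies 43.5 kb from Vcan, had 2.36 and 10.7 CPM in Dnmt3l-KO and 2.95 and 5.32 CPM in WT. Again the Dnmt3l-KO libraries enclosed WT. Of the corneal and cartilage relatives beside Dcn and Lum, Kera had 0 CPM in every library, and Epyc had 0 and 0.0957 CPM in Dnmt3l-KO and 0.0849 and 0 CPM in WT. Atp2b1, the nearest tested gene beyond Lum, had 104 and 119 CPM in Dnmt3l-KO and 120 and 106 CPM in WT. On chromosome 1, Optc, 0.616 kb from Prelp, had 1.02 and 0.885 CPM in Dnmt3l-KO and 0.849 and 0.623 CPM in WT. Omd, Ecm2, Kera, Epyc and Optc were chosen after their values were seen, as was the choice of which other neighbours to describe.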
